A study of Mus musculus with 6 samples.

Results

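The genes described here are 10 genes of the epithelial to mesenchymal transition: the transcription factors Snai1, Snai2, Twist1, Twist2, Zeb1 and Zeb2, the growth factor ligands Tgfb1 and Tgfb2, and the structural genes Vim and Cdh2. They were taken by name, and every probe set annotated to 1 of them alone was kept, which gave 25 probe sets of 45037, for 10 of 18193 named genes. Of these, 23 had a mean signal above the filter used for testing, among 27022 tested probe sets. The samples were day 6 embryoid bodies, clumps of differentiating mouse embryonic stem cells of the Hoxb4i line. All 6 samples carried its tet-on cassette, through which doxycycline turns on HOXB4. In the induced group, doxycycline was present at 2 µg/ml for 48 hours from day 4, and the uninduced group received none. Each group held 3 arrays, 1 per experiment (A, B or C), so that an experiment was a pair of arrays. The labels name no promoter beyond the tet-on cassette, and doxycycline given to cells without the cassette was not analysed here.

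In this transition epithelial cells lose their cell to cell junctions and become migratory. It takes place at gastrulation, when mesoderm forms, in the neural crest and in the forming heart valves. TGF-beta ligands bind a pair of receptor kinases that activate SMAD proteins, which switch on the SNAI, TWIST and ZEB factors. The SNAI and ZEB proteins are zinc finger repressors that bind E-box sequences, among them in the gene of the epithelial cadherin Cdh1, while TWIST proteins are basic helix-loop-helix factors. Vimentin, an intermediate filament protein, and N-cadherin, the product of Cdh2, are the usual markers of the mesenchymal state.

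The arrays of 1 experiment shared most of their pattern, and the uninduced array of A stood apart. Its Actb control probe sets gave a 3'/5' signal ratio of 2.88, against 1.26 to 1.48 on the other 5 arrays. It was the extreme array, above or below all others, on 53.7% of the tested probe sets, against 17.6% to 39.7% on the others, and on 10 of the 23 probe sets of the 10 genes, as was the uninduced array of B. The experiments also differed in cell type markers, which are given with the gene lists further on. The table has no detection calls, so that a low signal does not show that a transcript was absent, and signals of different probe sets have no common scale.

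The experiments differed mainly in 4 of the 10 genes, Snai2, Twist2, Tgfb1 and Tgfb2, which were high in B, intermediate in A and low in C. Vim was higher in B than in A or C on most of its probe sets, and Twist1, Zeb1, Zeb2 and Cdh2 were not called in any comparison of 2 experiments on the 6 arrays. With limma's F test over the 3 experiments, with the induction as a term, 11 of 23 probe sets passed an adjusted p of 0.05, against 11.6% of all tested probe sets. In C, 10 of 23 were lower than in B and 0 higher, where 5.26% of all tested probe sets were lower and 4.33% higher. In C, 8 of 23 were lower than in A and 0 higher, against 4.29% and 2.52%. In B, 7 of 23 were higher than in A and 0 lower, against 2.09% and 1.91%. Some genes have several probe sets. With 1 probe set per gene, 4 of 10 genes were lower in C than in B, namely Snai2, Twist2, Tgfb1 and Tgfb2. The same 4 were lower in C than in A. The count was also 4 of 10 for higher in B than in A, but with Vim in place of Tgfb1, which was not called there. On 8 of 23 probe sets both arrays of B lay above both of A, and both of A above both of C, an order held by 4.19% of all tested probe sets.

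**Figure D1:**
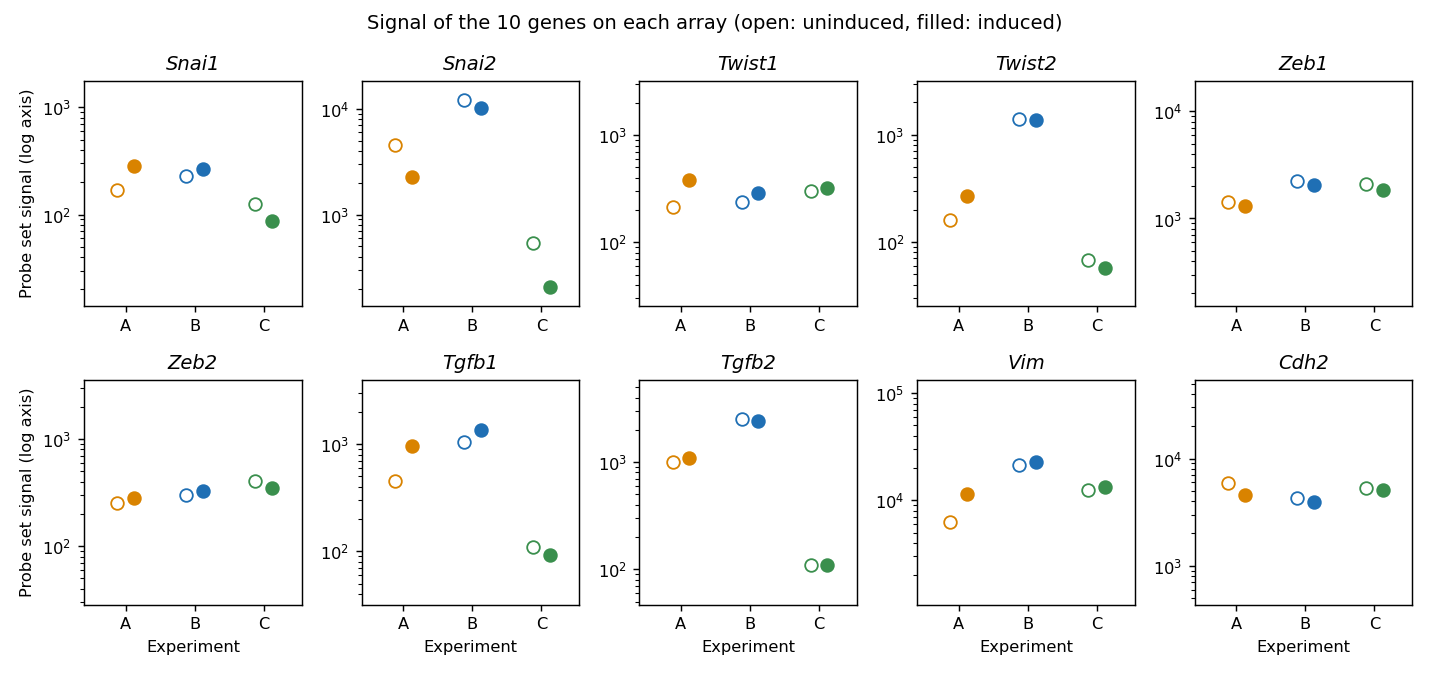
Signal of 1 probe set per gene on each of the 6 arrays, on a log axis, by experiment, with open circles for uninduced and filled circles for induced embryoid bodies. Snai2, Twist2, Tgfb1 and Tgfb2 stand highest in B and lowest in C, while Twist1, Zeb1, Zeb2 and Cdh2 stay within a narrow range.

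The ligand genes Tgfb1 and Tgfb2 were abundant in B and A and dim in C. On Tgfb2 probe set 1450923_at, the signals without and with doxycycline were 998.9 and 1103.0 in A, 2521.5 and 2400.3 in B, against 108.6 and 110.8 in C. The 3 experiments did not overlap, and within each the pair of arrays lay close together. The mean signal in B was 22.4 times that in C. On the log2(signal + 18.8) scale used for all tests, which understates changes of dim probe sets, C lay below B by -4.27 (95% confidence interval -4.77 to -3.77, adjusted p = 7.71e-05) and below A by -3.06 (adjusted p = 0.00108). B lay above A by 1.21 (adjusted p = 0.0276). The other 3 Tgfb2 probe sets, 1423250_a_at, 1438303_at and 1450922_a_at, were called in the same direction, with C minus B at -4.05, -3.48 and -4.17 and C minus A at -2.91, -2.38 and -2.90. B minus A was called on 1 of these 3, at 1.13 on 1423250_a_at. Probe sets 1423250_a_at and 1450922_a_at are annotated to the same source sequence as 1450923_at, so they are not separate evidence.

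Tgfb1, whose product is the ligand most studied as an inducer of the transition, had signals of 450.7 and 967.6 in A, 1045.8 and 1363.2 in B, against 111.0 and 93.2 in C on probe set 1420653_at, without and with doxycycline in that order. All arrays of A and B lay above those of C, and the 2 arrays of A differed more than those of B or C. C lay below B by -3.33 (interval -4.09 to -2.58, adjusted p = 0.000826) and below A by -2.50 (adjusted p = 0.00908), while B minus A was 0.83 and not called (adjusted p = 0.176). That difference was 0.34 without the uninduced array of A (adjusted p = 0.528) and 1.33 without its induced array (9.9e-05). Its second probe set, 1445360_at, was dim, with signals of 17.8 to 114.8, and was not called between experiments (C minus B -0.41, interval -1.70 to 0.89).

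Because Tgfb1 and Tgfb2 moved together across experiments, the 250 bases before their annotated starts are shown from RefSeq (GRCm38.p6), 5′ to 3′ on the strand of the gene. Capitals mark matches to the E-box word CANNTG and the TATA box word TATAAA, searched on both strands at any distance from the start. The Tgfb1 window is chr7:25686752-25687001 on the plus strand, and the Tgfb2 window is chr1:186705990-186706239 on the minus strand.
Tgfb1: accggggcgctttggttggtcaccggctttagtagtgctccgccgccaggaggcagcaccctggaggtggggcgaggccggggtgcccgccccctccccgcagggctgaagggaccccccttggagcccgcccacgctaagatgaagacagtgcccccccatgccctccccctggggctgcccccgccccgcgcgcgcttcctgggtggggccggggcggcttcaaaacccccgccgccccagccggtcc
Tgfb2: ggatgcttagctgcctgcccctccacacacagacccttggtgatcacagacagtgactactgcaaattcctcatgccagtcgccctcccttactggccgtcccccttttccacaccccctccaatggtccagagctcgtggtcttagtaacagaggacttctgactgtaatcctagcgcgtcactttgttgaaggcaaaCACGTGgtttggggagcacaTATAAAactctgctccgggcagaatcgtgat
The Tgfb2 window held 1 TATAAA and 1 CANNTG, the word CACGTG starting 51 bases before the annotated start, and the Tgfb1 window held neither motif. Its GC content was 75.2%, against 53.6% for Tgfb2. Among 32851 promoter windows of the same length, 66.2% held a CANNTG and 12.4% a TATAAA. So the pair of ligand genes that shared a pattern across experiments did not share these letters.

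Of the SNAI factors, Snai2, which encodes SLUG, was called lower in C than in A and B on both of its probe sets. On probe set 1447643_x_at, which has the higher mean signal of its 2 probe sets, the signals were 4514.8 and 2239.8 in A, 12139.1 and 10110.0 in B, against 542.0 and 204.9 in C, without and with doxycycline. The mean in B was 29.8 times that in C, and the experiments did not overlap. C lay below B by -4.97 (interval -5.56 to -4.38, adjusted p = 7.72e-05) and below A by -3.18 (adjusted p = 0.00163), and B above A by 1.79 (adjusted p = 0.014). The suffix of this probe set marks possible cross-hybridization. Probe set 1418673_at had signals of 1014.1 and 621.9 in A, 1778.0 and 1903.4 in B, against 89.5 and 185.9 in C. It gave C minus B as -3.64 (adjusted p = 0.000849) and C minus A as -2.45 (adjusted p = 0.0132), while B minus A was 1.19 and not called (adjusted p = 0.104).

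Snai1, which encodes SNAIL and acts early in gastrulation, was not called. Its signals were 167.9 and 281.3 in A, 230.0 and 265.3 in B, against 124.0 and 87.3 in C on its single probe set. The arrays of C lay below all others. C minus B was -1.11 (interval -1.94 to -0.29, adjusted p = 0.1) and C minus A was -0.94 (adjusted p = 0.137). Without either array of A, C minus B stayed at -1.11. Without the uninduced array of A, C minus A was -1.34, and without its induced array -0.54. Without the induced array of C the differences shrank to -0.68 for C minus B and -0.51 for C minus A. Without its uninduced array they were -1.54 and -1.38. Whether Snai1 passed the threshold changed with the array left out. Each of these fits leaves 1 experiment with 1 array, so only the differences are given. The Snai1 promoter window held 1 CACCTG, the reverse complement of CAGGTG and the E-box form that SNAI and ZEB proteins bind, starting 126 bases before the annotated start. Of all windows 17.2% held this form on either strand, and none of the windows of Twist1, Twist2, Tgfb1, Tgfb2 and Vim did.

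The TWIST genes differed from one another in pattern. Twist2, also known as Dermo1, had signals of 160.6 and 269.9 in A, 1393.8 and 1382.2 in B, against 67.3 and 57.1 in C. B stood far above the rest, with a mean 22.3 times that of C and 6.45 times that of A. C lay below B by -4.12 (interval -4.83 to -3.41, adjusted p = 0.000264) and below A by -1.49 (adjusted p = 0.0336), and B above A by 2.63 (adjusted p = 0.00822). Twist1, a regulator of cranial mesoderm and neural crest, had signals of 214.6 and 378.3 in A, 236.0 and 289.0 in B, against 298.9 and 321.9 in C. The experiments overlapped, and C minus B was 0.23 with an interval of -0.43 to 0.90 (adjusted p = 0.68), an interval that leaves out a difference of the size seen for Twist2.

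The windows of these paralogous genes are shown in the same way, because their transcripts had different patterns. The Twist1 window is chr12:33957421-33957670 and the Twist2 window chr1:91801211-91801460, both on the plus strand.
Twist1: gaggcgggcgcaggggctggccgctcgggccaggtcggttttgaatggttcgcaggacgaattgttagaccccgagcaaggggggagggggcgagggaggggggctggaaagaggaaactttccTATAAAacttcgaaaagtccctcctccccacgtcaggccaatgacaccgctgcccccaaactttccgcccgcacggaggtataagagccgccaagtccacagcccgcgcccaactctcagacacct
Twist2: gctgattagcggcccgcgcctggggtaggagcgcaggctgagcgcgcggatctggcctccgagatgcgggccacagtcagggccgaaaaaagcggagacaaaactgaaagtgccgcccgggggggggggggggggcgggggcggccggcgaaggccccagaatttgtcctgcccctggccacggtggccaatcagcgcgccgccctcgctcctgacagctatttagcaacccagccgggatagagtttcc
The Twist1 window held 1 TATAAA and no CANNTG, and the Twist2 window held neither.

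The ZEB factors kept nearly level between experiments. Zeb1, on probe set 1418926_at, had signals of 1438.6 and 1304.3 in A, 2230.9 and 2036.0 in B, against 2115.8 and 1827.3 in C. Both arrays of A lay below the others, and the differences were not called, at 0.63 for B minus A (adjusted p = 0.0887) and 0.52 for C minus A (adjusted p = 0.11). C minus B was -0.12 with an interval of -0.52 to 0.29. Without the uninduced array of A, B minus A and C minus A were 0.62 and 0.50, and without its induced array 0.65 and 0.53. Whether they passed the threshold changed with the array left out, as 1 array then stood for A. Of its other probe sets, 1443005_at and 1446127_at were not called, and 1420243_at, at 5.8 to 42.0, was below the filter.

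Zeb2, which encodes a SMAD-interacting repressor, had signals of 251.9 and 281.7 in A, 299.0 and 328.4 in B, against 402.4 and 352.1 in C on probe set 1456389_at. The order was C, then B, then A, and the differences were not called. C minus B was 0.25 (interval -0.35 to 0.86). On the other 3 tested probe sets, 1422748_at, 1434298_at and 1458941_at, C minus B was 0.58, 0.02 and 0.65, and none was called. Probe set 1454200_at, at 3.6 to 52.5, was below the filter.

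Among the structural genes, Vim had very high signals everywhere, and B was the highest. On probe set 1450641_at the signals were 6224.7 and 11390.3 in A, 21478.8 and 22844.8 in B, against 12620.9 and 13265.2 in C, so that B did not overlap the others and the uninduced array of A was the lowest. B lay above A by 1.39 (adjusted p = 0.0143), and C minus B was -0.77 (interval -1.24 to -0.31, adjusted p = 0.0501), just short of the threshold. The other 2 probe sets, 1438118_x_at and 1456292_a_at, gave C minus B as -0.77 and -0.87 (adjusted p = 0.00701 and 0.00708) and B minus A as 0.83 and 0.85 (0.0149 and 0.0201). Both of these are annotated to the same source sequence. C minus A on 1450641_at, 1438118_x_at and 1456292_a_at was 0.62, 0.06 and -0.02, none called. On the first it was 1.01 without the induced array of A (adjusted p = 3.63e-09) and 0.22 without its uninduced array (0.331).

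Cdh2 had signals of 5932.0 and 4581.2 in A, 4276.9 and 3965.1 in B, against 5366.3 and 5107.1 in C on probe set 1418815_at, with B below the others. C minus B was 0.34 (interval -0.01 to 0.70, adjusted p = 0.223). On probe set 1449244_at the signals were 1615.2 to 3696.4 and C minus B was 0.39, again not called, while B minus A was 0.33 there against -0.34 on the first probe set. The epithelial cadherin Cdh1, which is no member, had signals of 4512.5 and 3818.4 in A, 878.6 and 1134.0 in B, against 409.7 and 241.0 in C. It fell from A to B by -2.04 (adjusted p = 0.0121) and from B to C by -1.61 (adjusted p = 0.00953). The experiment with the lowest Cdh1 was therefore also the one with the lowest Snai2, Twist2, Tgfb1 and Tgfb2.

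**Figure D2:**
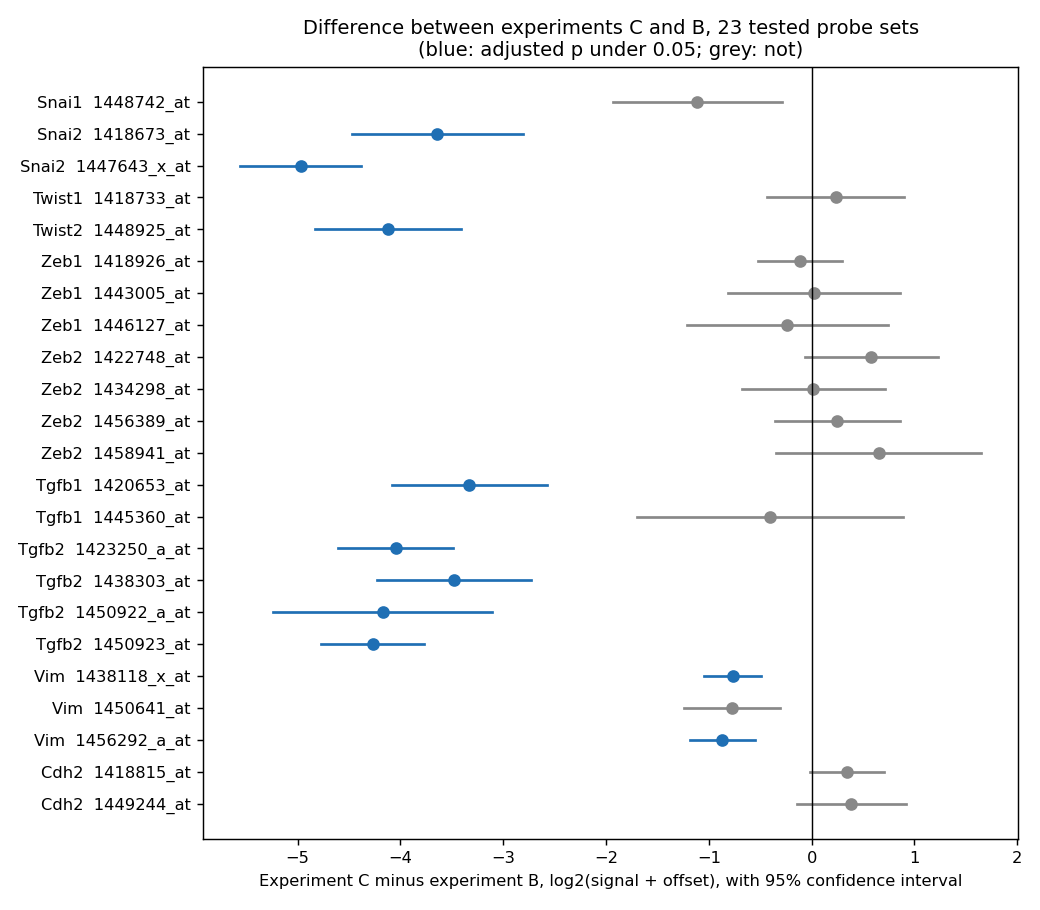
Difference between experiments C and B on the log2(signal + offset) scale for the 23 tested probe sets, with 95% confidence intervals from limma and adjusted p under 0.05 in blue. The probe sets of Tgfb2 lie between -4.27 and -3.48, while those of Zeb1, Zeb2 and Cdh2 lie near 0.

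The share of the sum of squares that lay between experiments was high for most of the genes on their probe set with the highest mean signal. It was 92.9% to 99.9% for the 4 Tgfb2 probe sets, 98.6% for Twist2 and 94.7% and 95.4% for Snai2. It was 91.8% for Zeb1 1418926_at and 85.9% for Zeb2 1456389_at as well, whose differences were small. The other probe sets gave 48.5% and 30.7% for Zeb1 and 87.3%, 66.1% and 33.4% for Zeb2. The dim Tgfb1 1445360_at gave 37.6%, and the Cdh2 probe sets gave 66.8% and 59.1%, near the median of all. For Twist1 it was 13.9%, with 55.5% for the induction, and the median over all tested probe sets was 65.7% for the experiment and 6.69% for the induction. With 3 experiments and 2 induction states, chance adds more to the share of the experiment.

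The C minus B calls of Snai2, Twist2, Tgfb1 and Tgfb2 held under each alternative run, and 8 to 12 of 23 probe sets were called lower in C when 1 array or experiment A was left out. The comparisons with A were less firm. Without the intensity trend in limma's variance model, 0 of 23 probe sets were called higher in B than in A, and the C minus A calls of Tgfb1 (adjusted p = 0.0594) and Twist2 (0.0891) were lost. Without the uninduced array of B, 1 probe set was called higher in B than in A, with Twist2, Vim and Tgfb2 lost (0.0654, 0.0705 and 0.416), and without its induced array 2, with Snai2 and Tgfb2 lost (0.0927 and 0.159). Without the uninduced array of A this count was 9, and without its induced array 12, and in the latter 2 were lower, among them Cdh2 at -0.48 (adjusted p = 0.0095). Without that array, the uninduced array of A or both, C minus B of Cdh2 (0.34) passed too, at adjusted p of 0.015 to 0.0164, and 2 of 23 probe sets were called higher in C. The C minus A call of Twist2 was also lost without the uninduced or the induced array of C, without both arrays of B and with no filter (adjusted p = 0.1, 0.17, 0.063 and 0.0547). Without the uninduced array of C, 5 of 23 probe sets were called lower in C than in A. Without the uninduced array of A, 1 of 23 was called higher in C than in A, and without its induced array 3, among them Vim 1450641_at. The number called over all 27022 probe sets moved with the array left out. For B minus A it was 1082 with all arrays, 2922 and 9262 without the uninduced or the induced array of A, and 139 and 289 without those of B. For C minus A it was 1842, against 3971 and 9709 without the arrays of A and 264 and 352 without those of C. For C minus B it was 2591, against 8115 and 8126 without 1 array of A, 8179 without both, and 1018 to 1275 without 1 array of B or C. A member called without an array of A is therefore 1 of many probe sets called there.

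Genes of the TGF-beta pathway other than the 10 were also lower in C than in B. Of 15 tested, 9 were lower in C and 0 higher (median -1.25, against 0.07 over 12452 tested genes). They were led by Tgfbi, which encodes a TGF-beta induced matrix protein, at -3.57, Tgfbr3, which encodes the coreceptor betaglycan, at -3.32, and Bambi, which encodes a decoy receptor, at -3.05 (adjusted p = 0.000134, 0.000134 and 0.000189). The signal-receiving kinase gene Tgfbr2 stood at -1.84 (adjusted p = 0.00287) and Smad7, an inhibitor induced by the pathway, at -1.72 (0.00334). Tgfbr1, Smad2, Smad3 and Smad4, which encode the other kinase and the signal transducers, were not called, with values of -0.13, -0.32, 0.22 and 0.04. In B, 5 of the 15 were higher than in A and 0 lower, against 2.09% and 1.91% of all tested probe sets. In C, 4 were lower than in A and 0 higher, against 4.29% and 2.52%. For C against B the shares were 5.26% lower and 4.33% higher. The counts of the next lists stand beside the same shares, which are of probe sets and not of genes.

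Of 17 tested mesenchymal genes, 12 were lower in C than in B and 0 higher (median -2.02). The matrix genes Postn, which encodes periostin, at -5.36, Col1a1 at -4.56 and Col3a1 at -3.42 led the list (adjusted p = 0.000139, 0.000131 and 0.000218). In B, 12 of the 17 were higher than in A and 1 lower, the transcription factor gene Foxc1 at -1.42. Between C and A they split, with 2 higher in C, Tagln and Col3a1, and 5 lower.

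Epithelial genes were also mostly lower in C. Of 20 tested, 9 were lower in C than in B and 1 higher, Cldn3 at 2.27 (adjusted p = 0.0101). The simple epithelial keratins Krt8 and Krt18 stood at -3.37 and -3.04 and the desmosome gene Dsp at -3.54 (adjusted p = 3.53e-05, 7.78e-05 and 0.000118). Against A, 14 of 20 were lower in C and 0 higher (median -2.00), with Epcam, an epithelial surface gene, at -3.00 beside Cdh1 at -3.64. Between B and A the median was -0.69, against 1.46 for the mesenchymal genes, and this difference was not tested. The calls split into 4 higher, namely Krt8, Krt18, Krt19 and Dsp, and 4 lower, namely Cldn3, Cdh1, Esrp1 and Epcam. Esrp1, a splicing regulator of epithelial cells, was at -1.85.

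Of 15 tested other regulators of the transition, 2 were lower in C than in B, the homeobox gene Prrx2 at -1.73 and the chromatin protein gene Hmga2 at -0.73, and 1 was higher, Id3, which encodes an inhibitor of basic helix-loop-helix factors, at 1.19 (adjusted p = 0.00659, 0.0133 and 0.00195). The median of the 15 was -0.04, against 0.07 over 12452 tested genes. Over all tested probe sets 5.26% were lower in C than in B and 4.33% higher. Of 10 cadherin and catenin genes, 4 were lower in C and 3 higher. Cdh3, which encodes P-cadherin, stood at -2.87, the alpha-catenin gene Ctnna1 at -1.18 and Cdh5, the endothelial cadherin, at -2.56. The higher ones, Cdh4, Cdh6 and Ctnna2, stood at 1.41, 1.52 and 2.23.

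**Figure D3:**
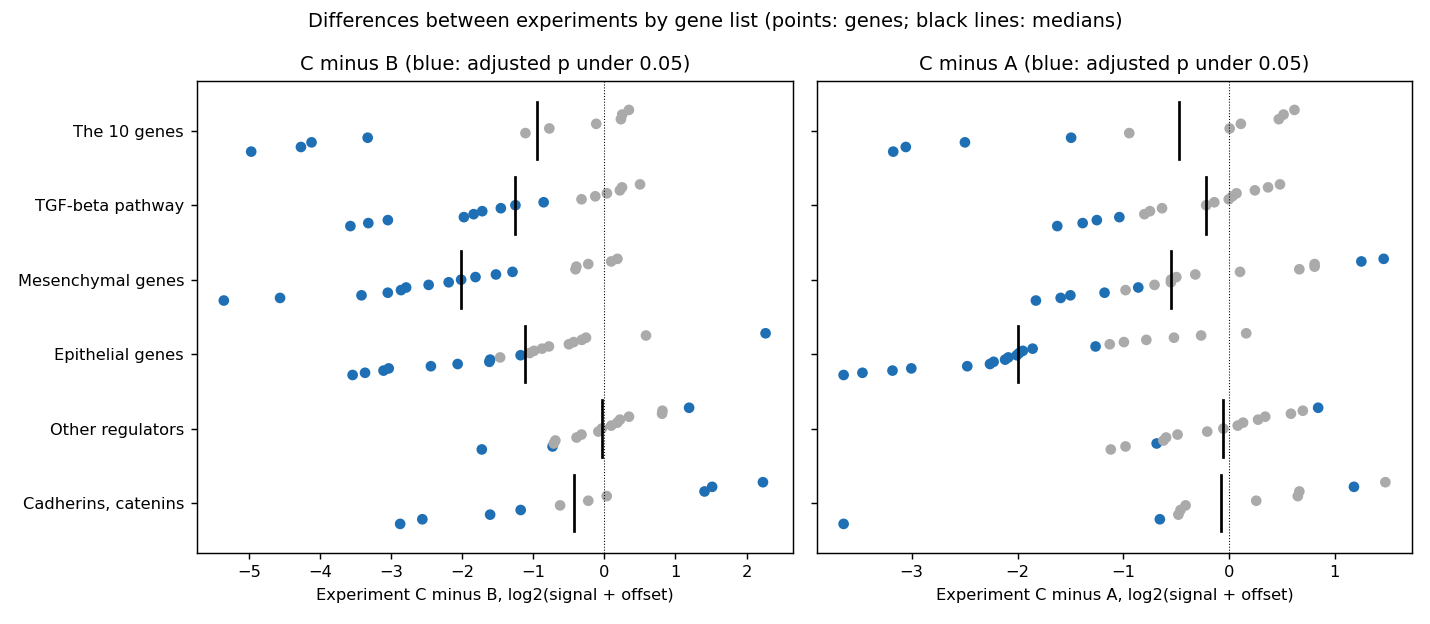
Differences between experiments on the log2(signal + offset) scale for the genes of 6 lists, C minus B on the left and C minus A on the right, with 1 point per gene, blue for adjusted p under 0.05 and black lines for medians. Mesenchymal and epithelial genes both lie mostly below 0, with medians of -2.02 and -1.12 against B and -0.55 and -2.00 against A.

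Markers of cell types also differed between the experiments, and their part in the result was not tested. Of all tested probe sets, 5.26% were lower and 4.33% higher in C than in B. In C, 4.29% were lower and 2.52% higher than in A, and in B, 2.09% were higher and 1.91% lower than in A. In whole embryoid bodies, fewer cells of a type and less RNA per cell cannot be told apart. The summed signal of 8 endothelial markers was 6545.5 and 6919.5 in B, 637.5 and 1679.3 in A, and 849.3 and 371.9 in C, and 7 of 8 were called lower in C than in B. That of 7 blood markers was 37062.9 and 26649.2 in B and 732.7 to 3165.2 on the other arrays, with 2 of 6 tested called lower in C than in B. Cardiac markers summed to 5086.7 and 2854.6 in B, 1795.6 and 1770.7 in A, and 560.5 and 353.7 in C (5 of 7 lower in C than in B). Endoderm markers summed to 12980.3 and 12504.2 in B, 7111.6 and 8317.1 in A, and 667.0 and 853.9 in C (4 of 8 lower in C than in B). Most of the sum in B came from Ttr, at 11110.3 and 10701.3, and the list did not move as one between B and A, with 2 of 8 called higher in B, 3 lower and a median of -0.92. Between C and A, 0 of 8 endothelial markers were called and 1 of 6 blood markers was higher in C. In the same comparison 3 of 7 cardiac and 5 of 8 endoderm markers were lower in C.

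Sums of neural and pluripotency markers were instead lowest in B. Neural markers summed to 504.6 and 274.7 in B, 6014.5 and 4109.3 in A, and 7373.1 and 5906.4 in C. Most of the sum in A came from Otx2, at 3861.0 and 2779.5. Of the 8 neural markers, 7 were higher in C than in B, and 3 were lower in B than in A. Against A, 2 of 8 were higher in C. Pluripotency markers summed to 1861.6 and 1360.7 in B, 6390.6 and 4536.5 in A, and 9942.2 and 9947.6 in C (4 of 8 higher in C than in B). Most of the sum in A and C came from Sox2, at 4389.5 and 2687.5 in A and 6163.4 and 6064.6 in C. Of the 8, 1 was called higher in C than in A, and C minus A of Pou5f1 was -0.64, not called. Of 6 tested neural crest markers, 2 were higher and 1 lower in C than in B, with sums of 2092.0 to 4144.7 over the 6 arrays. The sums hide opposite differences. Most of the sum in B, 2381.0 and 2426.2, came from Ets1, at 1834.8 and 1853.3. Ets1 was the marker lower in C, at -2.64, and Pax3 and Tfap2b were higher, at 4.96 and 2.76. Sums for paraxial mesoderm and mesenchyme were 374.4 to 1120.1, and 0 of 4 tested were called. No marker was listed at 0, the lowest signal being 0.9 for Meox2.

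The induction itself was not accompanied by a called change in any of the 10 genes. The comparison asked whether HOXB4, a homeodomain factor of blood stem cells, changes transcript levels when turned on for 48 hours. With limma, 0 of 23 probe sets passed, where 0% of all tested probe sets did, and with the experiment as a replicate block again 0 of 23 and 0%. At an unadjusted p under 0.05 there were 0 of 23 (background 0.511%), and 1 of 23 with the block (3.94%). In 0 of 23 did the induced and uninduced arrays fail to overlap, against 4.34% of all. The sign was the same in A, B and C on 7 of 23, against 26% of all.

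The 1 probe set under 0.05 with the block was Snai2 1447643_x_at, lower with doxycycline by -1.01 in A, -0.26 in B and -1.33 in C. Its mean was -0.86, with an interval of -4.33 to 2.60 without the block (adjusted p = 1) and -1.35 to -0.38 with it (limma unadjusted p = 0.00327, adjusted p = 0.93). The other Snai2 probe set did not run this way, at -0.69, 0.10 and 0.92. Twist1 had a positive difference in A, B and C alike, at 0.77, 0.27 and 0.10, and a mean of 0.38 (interval -0.24 to 1.00). All 3 Vim probe sets were also higher in 3 of 3, with means of 0.11, 0.34 and 0.17. Zeb1 1418926_at and Cdh2 1418815_at were lower in 3 of 3, at -0.16 and -0.18, but the second Cdh2 probe set stood at 0.31 and the other tested Zeb1 probe sets at 0.05 and -0.30.

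Tgfb2 1450923_at was level, with differences of 0.14, -0.07 and 0.02 in A, B and C. Its interval, which counts the differences between experiments as spread, was -3.00 to 3.07, and -0.38 to 0.44 with the block. The other Tgfb2 probe sets were less level: 1423250_a_at differed by 0.20, -0.11 and -0.38, 1438303_at by 0.03, -0.51 and 0.32, and 1450922_a_at by 0.68, -0.05 and -1.53. Zeb2 1456389_at differed by 0.15, 0.13 and -0.18, and no Zeb2 probe set kept 1 sign in A, B and C. Tgfb1 1420653_at differed by 1.07 in A, 0.38 in B and -0.21 in C, Twist2 by 0.69, -0.01 and -0.18, and Snai1 by 0.68, 0.19 and -0.43. For these 3 genes and for Twist1 and Vim 1450641_at, at 0.87, 0.09 and 0.07, the largest rise was in A, whose uninduced array had the high 3'/5' ratio. Without that array, which leaves A with its induced array alone, the differences were 0.28 for Twist1, -0.12 for Vim, -0.16 for Twist2, 0.14 for Snai1 and 0.52 for Tgfb1, against 0.38, 0.34, 0.16, 0.15 and 0.41 with all arrays. In this fit the first 3 were smaller or turned, Snai1 hardly moved and Tgfb1 was larger. The fit ignores the pairing and keeps the induced array of A without its partner. Its values therefore also hold differences between A and the other experiments. Within the whole pairs of B and C the differences were 0.38 and -0.21 for Tgfb1 and 0.19 and -0.43 for Snai1. The part of RNA quality in these values was not tested.

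**Figure D4:**
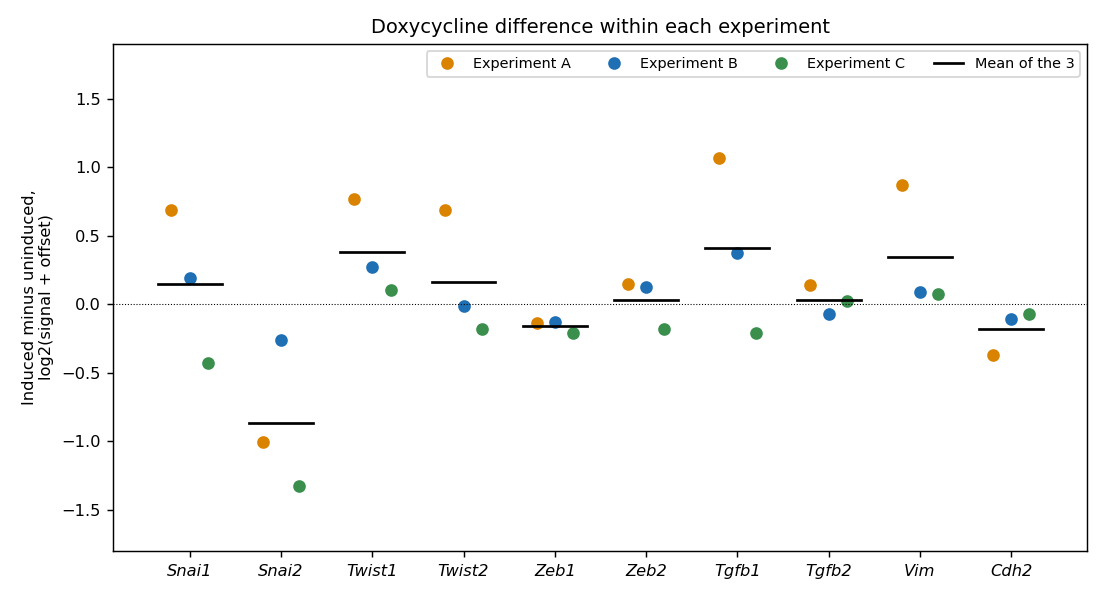
Induced minus uninduced on the log2(signal + offset) scale within each experiment, for 1 probe set per gene, with black lines for the mean of the 3. Tgfb1 ranges from 1.07 in A to -0.21 in C, while Tgfb2 and Zeb1 stay near 0.

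The genes most like each member over the 6 arrays were taken by Pearson's r of the log2 values. The 6 arrays come as 3 pairs, so that r mostly reflects the experiments and is a description only. Tgfb2 was most like Tnni1, which encodes a troponin, with signals of 805.2 and 1208.1 in A, 5126.2 and 4968.9 in B but 13.3 and 12.2 in C, and Cd248, which encodes a stromal surface protein (r = 0.999 for both). Tgfb1 was most like Cox18 and Crtc3 (0.997 and 0.996). Snai2 was most like Nrp1, the neuropilin gene, and Stat3 (0.997 and 0.995), and Twist2 like S100a10 and Frmd6 (0.998 for both). Of 12451 other genes, 279 had r over 0.95 with Tgfb2, 282 with Twist2 and 245 with Snai2, against 7 with Twist1, whose nearest was Tff1 (0.982). Snai1 was nearest to Tmem158 (0.994), Zeb1 to Nuak1 (0.996), Zeb2 to Slc37a4 (0.997), Vim to Kbtbd2 (0.998) and Cdh2 to Acot1 (0.996). Among the members, r was 0.976 for Tgfb1 with Tgfb2, 0.966 for Snai2 with Tgfb2 and -0.893 for Vim with Cdh2. The last value rests on Cdh2 1418815_at alone. The other Cdh2 probe set, 1449244_at, had a B minus A of 0.33 against -0.34, and its r with Vim was not taken.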

How the data were processed

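RNA of 6 samples was hybridized to Affymetrix Mouse Genome 430 2.0 arrays, per the labels' protocols. The authors deposited 1 linear intensity per probe set and array, credited to MAS5 in the submitters' processing notes; the sources used here do not give its version. The trimmed mean was about 500 on every array (499.9 to 500.7), so no further scaling was applied. Of 45101 probe sets, 64 controls were left out. The values were taken as log2(signal + 18.8), an offset at the 20th percentile of the table, and probe sets with a mean under the 40th percentile (60.5) were not tested. The platform annotation held by GEO, possibly out of date, named the genes, and Entrez identifiers gave current symbols in a RefSeq table of GRCm38.p6 (34741 of 34945 probe sets with 1 gene), and 932 probe sets with several genes and 9160 with none were not named.

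The tests used limma 3.58.1 (R 4.3.3), with empirical Bayes variances that follow intensity, two-sided p-values adjusted by Benjamini and Hochberg across the 27022 probe sets, and a threshold of 0.05. The experiments were compared with the induction as a term. The scripts were tested on simulated data. A gene was represented by its tested probe set with the highest mean. The text describes every probe set of the 10 genes and names Cdh1, up to 3 members per list with the smallest p and the genes most like each member by r; further list members were named after their values were seen. Alternatives were the offset, the filter, quantile normalization, the variance trend, the replicate block, the induction term and left-out arrays. The genes and lists were chosen with earlier results of these data known.

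Arrays with the same letter come from 1 experiment, per the labels, so the letters pair them. Deviations from the group means correlated at 0.45, 0.67 and 0.66 across probe sets within A, B and C. Each sample is 1 array, and their number limits the precision. The design text calls the 3 replicates biological. A promoter window was found for 7 of the 10 genes.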

Additional observations from a re-analysis of the deposited data

How the results depend on the processing

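The doxycycline comparison gave 0 called probe sets under every alternative run, the replicate block included, and the block changed no call. Over all tested probe sets the F test of the experiments called 3138, but 1186 without the intensity trend, and from 1098 to 13806 with 1 array or 1 experiment left out. The highest count came without the induced array of A; with 1 array left out a lone array stands for its experiment and is assumed to vary like the others. The cause was not tested. Quantile normalization reversed 2 differences near 0 that were not called, C minus A of Cdh2 (-0.0495) and B minus A of Twist1 (0.0183). Leaving out 1 array of a pair from the fit without the block reversed uncalled differences of members. These ranges ignore the pairing and so hold differences between experiments as well; with whole experiments left out Snai2 was -0.79, -1.17 and -0.63 and Tgfb2 -0.02, 0.08 and 0.04, without A, B and C. Over all of these, the induced minus uninduced range was -2.14 to 0.61 for Snai2, -0.92 to 1.33 for Twist2, -0.40 to 1.54 for Tgfb1, -1.19 to 1.25 for Tgfb2, -0.12 to 0.64 for Snai1, -0.12 to 0.77 for Vim, -0.36 to 0.026 for Zeb1 and -0.11 to 0.21 for Zeb2. For the experiments it was -0.23 to 0.57 for B minus A of Snai1, -0.41 to 0.17 and -0.18 to 0.40 for B minus A and C minus A of Twist1, and -0.13 to 0.15 for C minus A of Cdh2. C minus B of Vim 1450641_at passed with offset 64 (adjusted p = 0.0437) and quantile normalization (0.0499). The table gives no signal over background, so how far dim probe sets lie above it is unknown.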
